A study of Drosophila melanogaster with 8 samples.

Results

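Larvae of the third instar of Drosophila melanogaster that carry DGCalpha1[3], a mutant allele of the soluble guanylyl cyclase gene Gycalpha99B, were set against control larvae on 8 spotted cDNA arrays, and the response common to both foraging backgrounds is described here. On 4 arrays mutant and control larvae were of the Rover background, and on 4 they were of the sitter background. All larvae were untreated, and each array compared mutant and control RNA of 1 background in its 2 channels. All 8 arrays of the series were used. Spots of a gene were averaged per array, each array was centred on its median over 19325 features, and the mean of the Rover mean and the sitter mean was tested against 0. Of 6793 named genes, 2299 had the same sign on all 8 arrays, 1130 positive and 1169 negative, and these genes are the members described below.

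Soluble guanylyl cyclase is a heterodimer of an alpha and a beta subunit. Nitric oxide activates it, and it makes the second messenger cGMP, which acts through cGMP-dependent protein kinases, cGMP-gated channels and phosphodiesterases. Rover and sitter are natural variants of the foraging gene, which encodes a cGMP-dependent protein kinase; Rover larvae travel farther while they feed. The values here address the transcripts whose ratio is shared by larvae of either variant.

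Every value below is the centred log2 ratio of the 2 channels of an array. Which channel is the numerator, which dye labelled which RNA and whether dyes were exchanged between arrays cannot be learned from the labels. A ratio is therefore called positive or negative, with no direction for the mutant, and base 2 is assumed. No array of control against control was used here, so a probe or dye effect common to the 8 arrays and a common ratio of mutant and control RNA cannot be told apart. The values are ratios of RNA from larvae, in which fewer cells of a type and less RNA per cell cannot be told apart, and they hold no level, so a tissue could not be checked against its markers. Nothing in the labels says that the arrays of a background came from separate cultures or extracts. A p-value therefore measures the spread between arrays, which may be technical. As deposited, array medians lay between -0.11 and -0.50. The median of the named genes was 0.067 after centring and -0.23 as deposited. The arrays correlated with each other across features at 0.312 to 0.667, with none below 0.

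Ratios of one sign on every array were frequent. The 1130 positive members were 16.6% of the named genes and the 1169 negative members 17.2%, together 33.8%. Fewer genes fell in the middle, with 421 genes positive on 3 arrays and 477 on 4. By limma, 2264 of the 2299 members had a mean over both backgrounds that passed at a Benjamini-Hochberg adjusted p under 0.05. That count is read beside the background, since the signs and the test use the same values: 56% of all named genes were called, 28.9% positive and 27.1% negative, and 60.1% of all 19325 features, 28.1% positive and 32% negative. Most members had small ratios. A mean above 1 in size was found for 14 positive and 27 negative genes, a mean of 0.5 to 1 for 179 and 764, and a mean of up to 0.5 for 937 and 378. Against a fold of 1.5 instead of 0, CG14302 was the 1 named member called (adjusted p = 0.04995).

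**Figure D1:**
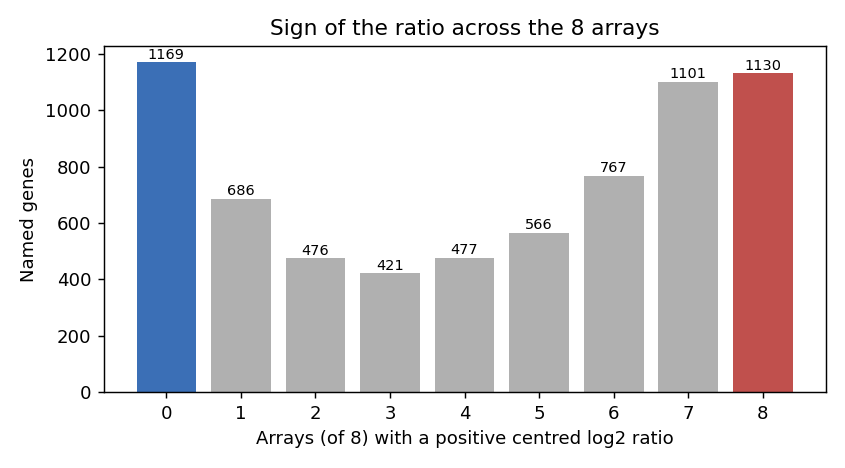
Number of named genes (y axis) by how many of the 8 arrays gave a positive centred log2 ratio (x axis); the bars at 0 and 8 are the genes of one sign. The outer bars hold 1169 and 1130 genes, and the lowest bar holds 421.

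The sign of many positive members depended on the centring. All 1169 negative members were negative on all 8 arrays as deposited too, since centring added to every array. Of the 1130 positive members, 90 were positive on all 8 arrays as deposited, 1037 had mixed signs and 3 were negative on all 8. In all, 1259 genes kept one sign both ways. Just inside the rule, 600 positive and 424 negative members had at least 1 array within 0.1 of 0. Just outside it, 1101 genes were positive on 7 arrays, with a median mean of 0.27, and 686 were negative on 7, with a median of -0.40.

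Not every gene called for its mean was a member: 1541 of the called genes had mixed signs. CG11911, a serine protease gene with the smallest adjusted p of all named genes for the mean (0.000648), was at -3.68, -3.29, -3.97 and -3.27 on the Rover arrays and 0.54, 0.52, 0.27 and 0.18 on the sitter arrays. The Rover arrays carried its mean of -1.59, and the sitter arrays had the opposite sign. Drs, the antifungal peptide drosomycin, was positive on every array other than Rover replicate 3 (-0.75), with a mean of 1.39 (adjusted p = 0.0037). These genes are listed for contrast and were chosen after their values were seen.

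Among the positive members of largest mean were genes of secreted and membrane proteins. Bace encodes the aspartyl protease that corresponds to vertebrate beta-secretase. In replicate order from 1 to 4, its ratios were 2.53, 2.79, 1.08 and 0.86 on the Rover arrays and 1.35, 1.17, 2.66 and 0.74 on the sitter arrays, with a mean of 1.65 (95% interval 1.06 to 2.24; limma adjusted p = 0.00232). Rover replicates 1 and 2 and sitter replicate 3 stood well above the other arrays of Bace. Tsp42Ec, a tetraspanin of the cell membrane, was far more even, at 0.82, 1.5, 1.03 and 1.34 on the Rover arrays and 0.77, 1.02, 0.92 and 0.92 on the sitter arrays (mean 1.04, interval 0.84 to 1.24; adjusted p = 0.00136). Its Rover and sitter arrays overlapped, with none near 0. The mucin genes Muc18B and Muc55B had means of 0.99 (adjusted p = 0.00184) and 1.14 (0.00795). All arrays of Muc18B lay between 0.61 and 1.70, whereas Muc55B ran from 0.010 to 2.45 and was near 0 on replicate 4 of each background.

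Drsl5, a member of the drosomycin peptide family, averaged 1.05 (interval 0.75 to 1.35; adjusted p = 0.00184) with arrays from 0.45 to 1.83. The pastrel gene pst, known for its part in resistance to Drosophila C virus, averaged 1.08 (interval 0.79 to 1.37; adjusted p = 0.00179) and lay above 0.6 on every array. GstE3, a glutathione S-transferase, averaged 1.15 (adjusted p = 0.00184), and its 4 Rover arrays (1.41 to 2.37) lay above its 4 sitter arrays (0.12 to 1.14). Inside the cell, the DNA topoisomerase gene Top3alpha averaged 1.03 (adjusted p = 0.00148). CG10560 belongs to the ecdysteroid kinase-like family and stood at 0.59, 1.54, 1.06 and 1.55 on the Rover arrays and 1.33, 1.87, 2.29 and 1.56 on the sitter arrays (mean 1.47, interval 1.16 to 1.78; adjusted p = 0.00136). Rover replicate 1 was its lowest and sitter replicate 3 its highest array, and the groups overlapped.

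The positive gene of largest mean, CG10910, has no role stated here. Its ratios were 3.34, 3.83, 2.38 and 2.13 on the Rover arrays and 0.87, 1.47, 1.12 and 0.41 on the sitter arrays, with a mean of 1.94 (interval 1.51 to 2.37; adjusted p = 0.00136). The Rover arrays did not overlap the sitter arrays, although all 8 were positive. Tsp42Ec and CG14302 had the smallest SD over the 8 arrays of all members with a mean above 1 in size, 0.25 and 0.28. CG14302 was at 1.42, 1.80, 1.13 and 1.58 on the Rover arrays and 0.98, 1.29, 1.73 and 1.41 on the sitter arrays (mean 1.42, interval 1.18 to 1.65; adjusted p = 0.00112), and its weakest array, at 0.98, was the highest such value among the positive members called. Its Rover and sitter arrays covered much the same range. The next weakest-array values were those of CG7248 (0.77), Tsp42Ec (0.77), Bace (0.74) and CG6933 (0.69). CG7248 and CG6933 averaged 0.89 and 0.96 with an SD over the 8 arrays of 0.19 and 0.17.

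Of the 15 positive genes of largest mean the remaining were CG5550 (1.28), CG3251 (1.14), CG30059 (1.13), CG15043 (0.99) and CG9577 (0.99). CG5550 followed Bace in its unevenness, with 1.90, 2.53 and 2.34 on Rover replicates 1 and 2 and sitter replicate 3 and at most 0.89 on the others. By the weakest array, ghi (0.96) and CG8160 (0.84) were also named. Of these 20 positive genes, 17 were positive on all 8 arrays as deposited too; the exceptions were CG15043, CG3251 and Muc55B.

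**Figure D2:**
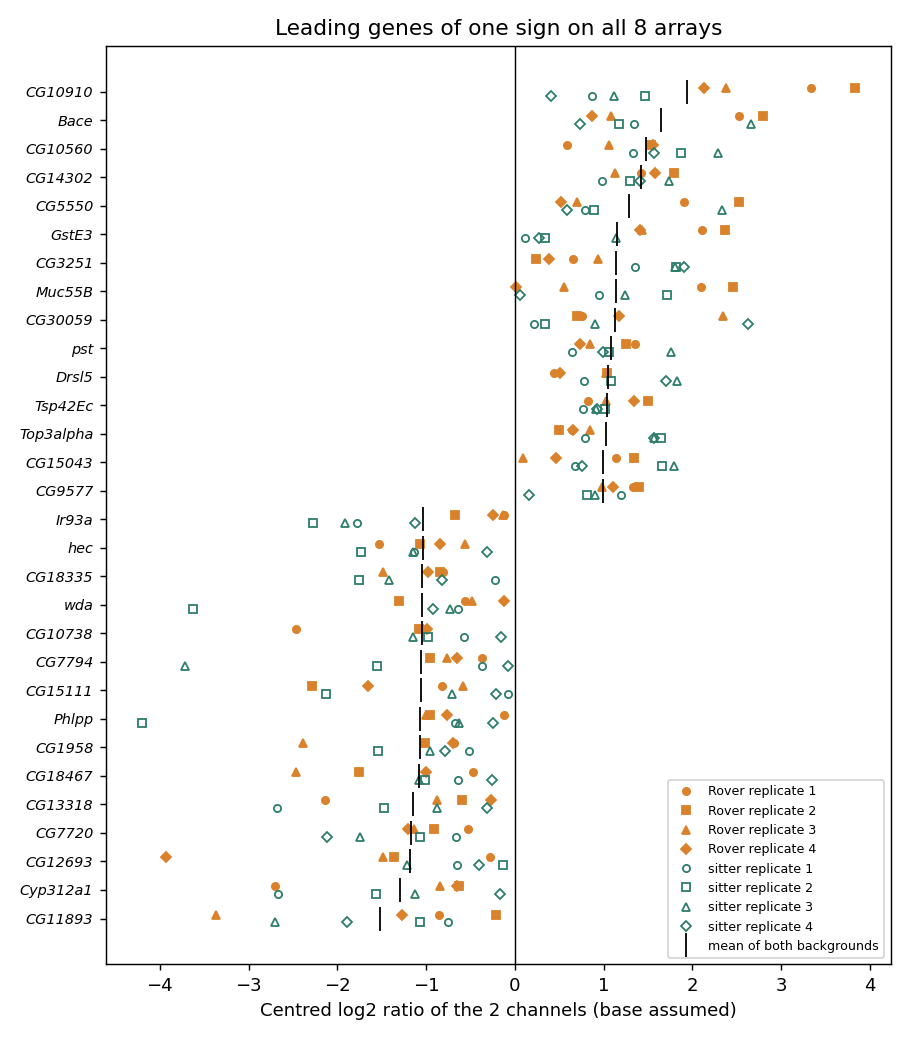
Centred log2 ratio (x axis) of the 15 positive and 15 negative members of largest mean, 1 gene per row; filled orange symbols are the 4 Rover arrays, open green symbols the 4 sitter arrays, and the vertical tick is the mean of both backgrounds. No symbol crosses 0; Phlpp, wda, CG7794 and CG12693 each have 1 array far to the left of their others.

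Among the negative members of largest mean were genes of enzymes and receptors. CG11893, like CG10560 of the ecdysteroid kinase-like family but of opposite sign, was at -0.86, -0.21, -3.37 and -1.28 on the Rover arrays and -0.75, -1.07, -2.70 and -1.90 on the sitter arrays (mean -1.52, interval -2.25 to -0.78; adjusted p = 0.00486). Replicate 3 gave its strongest ratio in each background, and the Rover and sitter arrays overlapped. Cyp312a1, a cytochrome P450 monooxygenase, was at -2.70, -0.63, -0.84 and -0.65 on the Rover arrays and -2.67, -1.56, -1.12 and -0.17 on the sitter arrays (mean -1.29, interval -1.95 to -0.64; adjusted p = 0.0057). Replicate 1 gave the strongest ratio of Cyp312a1 in each background, and it was hybridised on print lot A. The lot B arrays alone gave -0.83, adjusted p = 0.00843. The receptor-type guanylyl cyclase gene CG10738 averaged -1.05 (interval -1.45 to -0.65; adjusted p = 0.00254).

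Ir93a, an ionotropic receptor of cool- and humidity-sensing neurons, averaged -1.03 (adjusted p = 0.00184). Its Rover arrays, from -0.68 to -0.12, did not overlap its sitter arrays, from -2.28 to -1.13. The hector gene hec, a G protein-coupled receptor gene named for its courtship phenotype, averaged -1.04 (adjusted p = 0.00209) with arrays from -1.74 to -0.32. Single arrays weighed on Phlpp, a phosphatase that acts on the kinase Akt, and on wda, a subunit of the SAGA histone acetyltransferase complex. Sitter replicate 2 stood at -4.20 for Phlpp and -3.62 for wda. Without that array the means were -0.61 (adjusted p = 0.00817) and -0.69 (0.00747), against -1.07 (0.0349) and -1.05 (0.016) with it. The call of Phlpp was lost without Rover replicate 2, Rover replicate 3 or Rover replicate 4 (adjusted p = 0.066 to 0.0752), and that of CG7794 without Rover replicate 2 (0.0519). Without sitter replicate 3 the mean of CG7794 was -0.68.

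Negative members named by their weakest array had ratios of moderate size. CG9570 had the largest weakest array among the negative members, -0.62, with a mean of -0.93 (adjusted p = 0.00185). CG10300 was at -0.68, -0.78, -0.89 and -0.81 on the Rover arrays and -0.59, -0.60, -1.24 and -0.73 on the sitter arrays (mean -0.79, interval -0.99 to -0.59; adjusted p = 0.00165), with sitter replicate 3 the lowest. Elp5, a subunit of the Elongator complex that modifies transfer RNA, averaged -0.72 (adjusted p = 0.00159) with an SD over 8 arrays of 0.17. Jhedup, a duplicate of the juvenile hormone esterase gene, averaged -0.83 (0.00184). CG13539 (-0.86), CG10654 (-0.92), CG4238 (-1.0) and CG18764 (-0.73) were named in the same way. CG7720 and CG1958, named by size and by the weakest array, averaged -1.17 and -1.07. CG12693 (-1.18), CG13318 (-1.15), CG18467 (-1.08), CG15111 (-1.06), CG7794 (-1.06) and CG18335 (-1.04) made up the 15 of largest mean. With lot B alone CG13318 was at -0.73, and with arrays at a gain of 64 alone CG7794 was at -1.71 and Phlpp at -1.66.

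The 2 backgrounds were compared by their difference. No member passed limma's test of Rover minus sitter, against 6 of 6793 named genes (0.0883%) and 0.0776% of all features. At an unadjusted p under 0.05 the count was 114 of 1130 positive members and 10 of 1169 negative members, against 645 of all named genes; requiring one sign on 8 arrays removes genes that differ in sign. The 95% interval of the difference lay within 1 of 0 for 2141 members (93.1%) and within 0.5 of 0 for 556 (24.2%). For the other members a difference beyond 0.5 lay within the interval that 4 arrays each allow. Tested separately in each background, 972 of the 1130 positive members were called in Rover, 183 in sitter and 163 in both. Of the 1169 negative members, 973 were called in Rover, 536 in sitter and 471 in both. In all, 634 members (27.6%) were called in both, and 138 positive and 131 negative members in neither. The share of all named genes called in each background is not given here. Members were chosen by sign on these same arrays, so these counts are not read as a trait of the members.

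The leading genes differed in how closely the backgrounds agreed in size. CG14302 averaged 1.48 ± 0.28 in Rover and 1.36 ± 0.31 in sitter (SD, n = 4 each), a difference of 0.13 with a 95% interval of -0.34 to 0.60. For CG10300 the means were -0.79 ± 0.089 in Rover and -0.79 ± 0.31 in sitter (SD, n = 4 each), and the interval of the difference was -0.40 to 0.41. Among the 43 genes named by size or weakest array, that interval held 0 for 38. The 5 exceptions were CG10910 (difference 1.95, 1.09 to 2.82; adjusted p = 0.142), Ir93a (1.48, 0.91 to 2.04; 0.0936), GstE3 (1.36, 0.70 to 2.02; 0.183), CG3251 (-1.16, -1.62 to -0.71; 0.0947) and Top3alpha (-0.73, -1.21 to -0.26; 0.361). None of these passed after adjustment over all features.

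**Figure D3:**
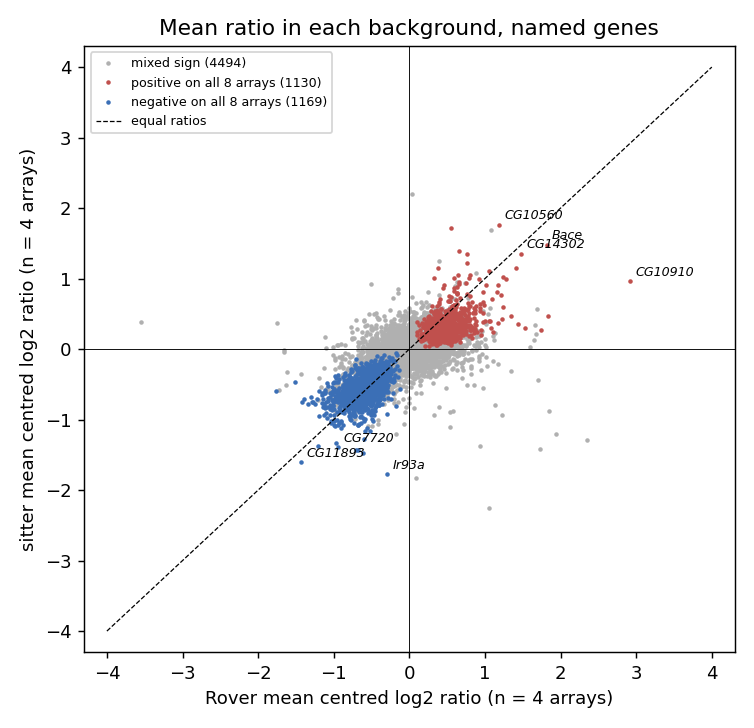
Mean centred log2 ratio in Rover (x axis, 4 arrays) against that in sitter (y axis, 4 arrays) for the 6793 named genes; red and blue points are the members positive and negative on all 8 arrays, grey points have mixed signs, and the dashed line marks equal ratios. Members lie in the upper right and lower left by construction; CG14302 and Bace sit near the line, CG10910 far to its right and Ir93a far below it.

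The size of the members' ratios moved with the array. The median over the negative members was -0.54 to -0.86 on the 5 arrays scanned at a Cy5 detector gain of 64, and -0.28 to -0.36 on the 3 arrays scanned at 67 or 68. The median over the positive members was 0.30 to 0.51 at the lower gain and 0.19 to 0.35 at the higher. All genes followed the same order, their median absolute ratio being 0.31 to 0.46 and 0.17 to 0.28. The gain was 64 on 3 Rover and 2 sitter arrays. In size, the Rover mean exceeded the sitter mean in 84.8% of the positive and 61.4% of the negative members. At a gain of 64 the positive medians were 0.46 to 0.51 in Rover and 0.30 to 0.39 in sitter. The negative medians there were -0.54 to -0.71 and -0.71 to -0.86. At 67 or 68 they were 0.35 and -0.36 in Rover, and 0.19 to 0.22 and -0.28 to -0.30 in sitter. The median absolute ratio of all genes at 64 was 0.41 to 0.46 in Rover and 0.31 to 0.37 in sitter. With the gain as a covariate all 143 named genes kept their side of the threshold. The gain entered with its mean over the arrays removed, so each mean over both backgrounds stayed the same by construction. No direction could turn in that fit. The part of the gain in these sizes was not tested further.

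**Figure D4:**
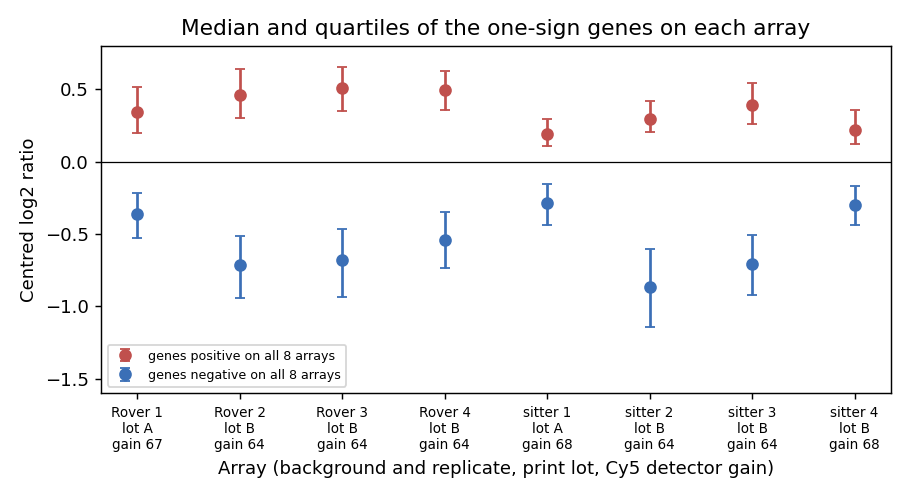
Centred log2 ratio (y axis) of the 1130 members positive on all 8 arrays (red) and the 1169 negative on all 8 (blue), shown as median (point) and quartiles (bars) on each array (x axis, with print lot and Cy5 gain). The medians lie closest to 0 on sitter 1 and sitter 4, both scanned at a gain of 68.

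Gene lists of the larva's main tissues and pathways were compared with all named genes, of which 28.9% were called positive and 27.1% negative, with a median of 0.067. Counts here are calls by limma for the mean over both backgrounds, described and not tested as lists. The 3 lists of largest negative share were chemosensory genes, germ line and testis genes and cytochrome P450 genes. Those of largest positive share were cytosolic ribosomal proteins (58.3%), immune genes (50%) and subunits of oxidative phosphorylation (46.5%), an order that depended on the centring. Centred on the median of named genes, muscle genes stood first (42.9%), with 41.7%, 33.3% and 41.9% for those 3 lists. Without centring, immune genes stood first (16.7%) and cytosolic ribosomal proteins had 4.17%. Without centring the positive calls were 160 of 6793 genes, and 3048 were negative. Several lists hold markers of single tissues (germ line, neurons, blood cells, muscle, salivary glands), and the part of tissue amounts in other lists was not tested.

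**Figure D5:**
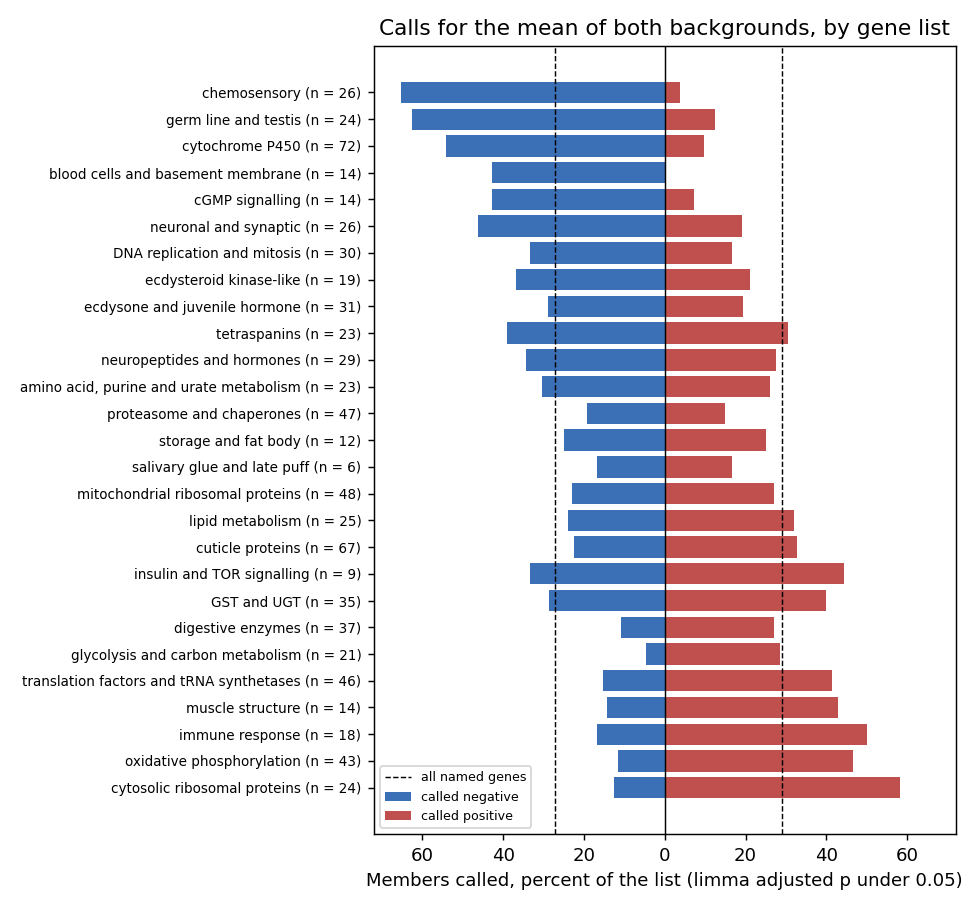
Percent of each gene list (y axis, with the number of measured members) called negative (blue, to the left) and positive (red, to the right) for the mean of both backgrounds; dashed lines mark the shares over all named genes, 27.1% and 28.9%. Chemosensory, germ line and cytochrome P450 genes reach farthest left, and cytosolic ribosomal proteins farthest right.

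Positive calls outnumbered negative calls among genes of protein synthesis and respiration. Of 24 cytosolic ribosomal protein genes 14 were called positive and 3 negative, with a median of 0.27; RpL23 (0.69), RpL27 (0.57) and RpL28 (0.37) were positive on all 8 arrays. RpL32, often used as a reference transcript, was negative on all 8, at -0.43 (adjusted p = 0.00353), but its 20 spots disagreed and 134 of 160 spot values were negative. Of 43 genes of oxidative phosphorylation, which makes ATP in mitochondria, 20 were called positive and 5 negative. The ATP synthase subunit gene ATPsynD was at 0.53 and the complex I subunit gene ND-B17.2 at 0.49, whereas ND-75, another complex I subunit, was at -0.74. Of the genes named as paralogues of standard subunits, COX6CL (-0.66), SdhCL (-0.53), COX7AL (-0.42) and ATPsynbetaL (-0.37) were called negative and ND-24L (0.47) positive. SdhAL (-0.28), ATPsynGL (-0.17), ND-51L2 (-0.16), SdhBL (0.11) and COX6AL (0.17) were not called. Without centring RpL23 (0.39, adjusted p = 0.13), RpL28 (0.072, adjusted p = 0.433) and ND-B17.2 (0.19, adjusted p = 0.139) lost their calls. Positive calls in these lists depended on the centring: as deposited, 1 ribosomal and 1 oxidative phosphorylation gene were positive and 4 and 9 negative.

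Translation factors and tRNA synthetases had calls of both signs. Of 46 genes 19 were called positive and 7 negative. The positive genes were initiation and elongation factors of the cytosol and the synthetase gene SerRS, with eIF5B at 0.53 (without centring 0.23, adjusted p = 0.223). The other cytosolic synthetase genes, AlaRS (0.11), IleRS (0.10), ThrRS (0.091), alpha-PheRS (-0.19) and beta-PheRS (0.16), were not called. Among the negative were 5 synthetases of mitochondria, including ValRS-m (-0.70) and ArgRS-m (-0.68), together with eIF2D (-0.74) and the selenocysteine factor eEFSec (-0.41). The other mitochondrial synthetase genes, GluRS-m (0.16), PheRS-m (0.064) and TrpRS-m (-0.0090), were not called. Of 48 mitochondrial ribosomal protein genes 13 were called positive and 11 negative, from mRpS28 at -0.79 to mRpL37 at 0.54. Of 47 proteasome and chaperone genes, 7 were called positive and 9 negative, against 28.9% and 27.1% of all genes. As deposited, 0 translation genes were positive and 12 negative.

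The families of detoxification genes had different shares of calls. Of 72 cytochrome P450 genes, monooxygenases of hormones and foreign compounds, 7 were called positive and 39 negative, with a median of -0.29; 23 were negative on all 8 arrays and 1 positive. After Cyp312a1 the negative members of largest mean were Cyp313a1 (-0.96), Cyp4d20 (-0.90) and Cyp6t1 (-0.86). The positive member was Cyp12a4 (0.37). The conjugating glutathione S-transferases and UDP-glycosyltransferases, 35 genes, were split, as 14 were called positive and 10 negative. GstE3 (1.15) and GstE14 (-0.82) differed in sign, as did Ugt35A1 (0.61) and Ugt35D1 (-0.84), and GstE3 and Ugt35D1 were the ends of the list. As deposited, 53 P450 genes were negative and 0 positive.

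Negative calls outnumbered positive calls among genes of sense organs, neurons and gonads. Of 26 chemosensory genes 1 were called positive and 17 negative (median -0.57). Behind Ir93a stood the odorant-binding proteins Obp56g (-0.89), lush (-0.83) and Obp57c (-0.77), and the positive gene was Obp8a (0.37). Of 24 germ line and testis genes 3 were called positive and 15 negative, with otu (-0.87), a gene of oogenesis, Mst84B (-0.80), expressed in the male germ line, and the germ cell gap junction gene zpg (-0.74) negative on all 8 arrays. Without Rover replicate 3 the mean of otu was -0.55. The positive exceptions were ocn (0.66), spn-F (0.36) and betaTub85D (0.27). Of 26 neuronal and synaptic genes 5 were called positive and 12 negative. Those of largest negative mean were the tyrosine hydroxylase gene ple (-0.86), the dopamine receptor gene Dop1R1 (-0.68), the dopamine transporter gene DAT (-0.64) and the acetylcholine receptor gene nAChRalpha4 (-0.55). Another dopamine receptor gene, DopEcR, was at 0.082 and not called (adjusted p = 0.335). The 5 positive genes were the vesicle protein gene nSyb (0.37, adjusted p = 0.00562), Shab (0.32), nAChRbeta1 (0.31), nAChRbeta3 (0.28) and 5-HT7 (0.23). Of these, the acetylcholine receptor gene nAChRbeta1 was positive on all 8 arrays, and the others had mixed signs. Under every alternative other than the fold threshold, 17 to 19 chemosensory, 12 to 18 germ line and 10 to 16 neuronal genes were negative. The ratios hold no signal intensity, so whether these spots were above background was not tested.

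Hormone genes had calls of both signs, as did all named genes, of which 28.9% were called positive and 27.1% negative. The shares were 27.6% and 34.5% for peptide hormone genes, 19.4% and 29% for ecdysone and juvenile hormone genes. For insulin and TOR genes they were 44.4% and 33.3%. Of 29 neuropeptide and peptide hormone genes 8 were called positive and 10 negative; the carboxypeptidase gene svr (-0.80), the neuropeptide gene amn (-0.76), the diuretic hormone receptor gene Dh44-R1 (-0.57), the eclosion hormone gene Eh (-0.56) and 7B2 (-0.41), which aids prohormone processing, were negative on all 8 arrays. The diuretic hormone receptor gene Dh31-R (0.39), the peptide genes Capa (0.38) and ITP (0.34) and the proctolin receptor gene Proc-R (0.35) were positive on all 8. The leucokinin receptor gene Lkr was called negative (-0.58) with mixed signs. Of 31 ecdysone and juvenile hormone genes 6 were called positive and 9 negative. Jhedup, the binding protein genes Jhbp5 (-0.79) and Jhbp2 (-0.68) and the methyltransferase gene jhamt (-0.66), which acts late in juvenile hormone synthesis, were negative on all 8, and Npc2f (0.46), the binding protein gene Jhbp14 (0.34) and the nuclear receptor gene Hr51 (0.23) were positive on all 8. Of 9 insulin and TOR genes 4 were called positive and 3 negative, with a median of 0.20. The positive calls were ImpL2 (0.49), foxo (0.42), S6k (0.23) and Akt (0.20), each with mixed signs. Negative on all 8 arrays were melt (-0.83) and rictor (-0.64). Without centring 0 genes of the peptide hormone, ecdysone and juvenile hormone, or insulin and TOR lists were called positive. The negative calls were then 15, 17 and 4.

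Blood cell genes had no positive call, and immune and cuticle genes had calls of both signs. The shares called positive and negative were 28.9% and 27.1% of all named genes. They were 50% and 16.7% of immune genes, 32.8% and 22.4% of cuticle genes and 16.7% and 33.3% of replication and mitosis genes. Of 14 plasmatocyte and basement membrane genes 0 were called positive and 6 negative. Negative on all 8 were the phagocytosis receptor genes NimC4 (-0.72) and eater (-0.55), the scavenger receptor gene Sr-CII (-0.63) and hemolectin, Hml (-0.46). The 8 genes not called were crq (0.28), ush (0.21), Pxn (0.15), NimC1 (0.14), SPARC (0.029), LanB1 (0.025), LanA (-0.16) and Col4a1 (-0.17). Of 18 immune genes 9 were called positive and 3 negative, and Drsl5, the serpin gene nec (0.44) and the NF-kappaB gene dl (0.30) were positive on all 8. Without centring nec was not called (0.13, adjusted p = 0.179) and dl had the opposite sign (-0.0018). Of 67 cuticle genes 22 were called positive and 15 negative, with Cpr73D (0.79) at one end and Cpr78E (-1.03) and Ccp84Ab (-0.88) at the other. Of 30 genes of DNA replication and mitosis 5 were called positive and 10 negative; the polymerase subunit gene PolA1 (-0.89) and the origin recognition genes Orc2 (-0.67) and Orc5 (-0.62) were negative on all 8 arrays, and Cdc23 (0.53) of the anaphase-promoting complex was positive, though not called without centring (0.23, adjusted p = 0.0735).

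Metabolic lists are read beside the 28.9% of all named genes called positive and 27.1% negative. The shares were 27% and 10.8% for digestive enzymes, 28.6% and 4.76% for glycolysis and carbon metabolism, and 25% and 25% for storage. They were 32% and 24% for lipid genes and 26.1% and 30.4% for amino acid and purine genes. Of 37 digestive enzyme genes 10 were called positive and 4 negative. Bace, gammaTry (0.60), a trypsin, and Jon65Aiv (0.32), a Jonah protease, were positive on all 8, while the maltase gene Mal-B2 (-0.58) was negative on all 8. Of 21 genes of glycolysis and carbon metabolism 6 were called positive and 1 negative. The glycerol-3-phosphate dehydrogenase gene Gpdh1 (0.55) and the hexokinase gene Hex-C (-0.40) were the members of one sign. In the storage and fat body list of 12 genes 3 were called positive and 3 negative, with regucalcin at 0.71 and fit at -0.74. Of 25 lipid genes 8 were called positive and 6 negative; the acyl-CoA synthetase gene bgm (0.63) and the sterol regulatory factor gene SREBP (0.40) were positive on all 8 and the lipase genes Lip3 (-0.81) and Lip2 (-0.70) negative. Of 23 amino acid and purine genes 6 were called positive and 7 negative, led by cn (-0.92), the kynurenine monooxygenase of eye pigment synthesis. Of 14 muscle genes 6 were called positive and 2 negative, with tn (0.37) and the actin gene Act79B (0.28) against the troponin C genes TpnC4 (-0.52) and TpnC41C (-0.42). Act79B was at -0.024 without centring, where tn (0.069, adjusted p = 0.491), gammaTry (0.30, adjusted p = 0.0841), Jon65Aiv (0.022, adjusted p = 0.848), Gpdh1 (0.25, adjusted p = 0.179) and SREBP (0.10, adjusted p = 0.334) were not called. In the salivary list of 6, Eig71Ed (-0.78) was negative and Eig71Eh (0.32) positive on all 8 arrays; without centring Eig71Eh was not called (0.014, adjusted p = 0.89).

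Tetraspanins, proteins that organise membranes, and ecdysteroid kinase-like proteins form large families, with members of both signs. Of 23 tetraspanin genes 7 were called positive and 9 negative (30.4% and 39.1%, against 28.9% and 27.1% of all named genes). Tsp42Ec (1.04) and Tsp42Ed (0.42) were positive on all 8 arrays, while Tsp42En (-0.97) and Tsp42Ej (-0.63), of the same cluster of neighbouring genes, were negative on all 8. Of 19 ecdysteroid kinase-like genes 4 were called positive and 7 negative (21.1% and 36.8%). CG10560, CG31974 (0.59) and CG10550 (0.42) were positive and CG11893, CG14314 (-0.88), CG10513 (-0.70) and CG5644 (-0.58) negative on all 8. Clone sequences were not used here, and signal shared between paralogues was not tested.

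The mutated gene was not a member, and the other cGMP genes had calls of both signs. Gycalpha99B itself had ratios of -0.41, -0.57, 0.63 and 0.95 on the Rover arrays and 0.29, -0.30, -0.011 and -0.26 on the sitter arrays, with a mean of 0.039 (interval -0.35 to 0.42; adjusted p = 0.854). Its signs were mixed in each background. The labels do not place its clone relative to the lesion, so the ratio is no firm check of genotype. Of 14 cGMP signalling genes 1 were called positive and 6 negative (7.1% and 42.9%, against 28.9% and 27.1% of all named genes). The guanylyl cyclase genes CG10738 (-1.05), Gyc88E (-0.73), Gyc89Db (-0.71) and CG3216 (-0.57) were negative on all 8 arrays, and Gyc89Da (-0.52, adjusted p = 0.0324) and the phosphodiesterase gene Pde1c (-0.46, 0.0161) were called with 1 array of the other sign. The channel subunit gene CngB was called positive (0.31, adjusted p = 0.0293) with 1 array negative. Without centring it was at 0.0094, adjusted p = 0.951, and with arrays at a gain of 64 alone or by single spots its adjusted p was 0.0555 and 0.122. Its call was also lost without Rover replicate 2, Rover replicate 3, sitter replicate 2, sitter replicate 3 or sitter replicate 4 (adjusted p = 0.0532 to 0.0815), and that of Gyc89Da without Rover replicate 2, sitter replicate 1, sitter replicate 2 or sitter replicate 3 (0.052 to 0.0721). Without Rover replicate 1 the mean of Gyc89Da was -0.32, and with lot B alone it was not called (-0.28, adjusted p = 0.0546). By single spots neither Gyc89Da (adjusted p = 0.0545) nor Pde1c (0.0926) was called. The nitric oxide synthase gene Nos (-0.072), the kinase gene Pkg21D (0.032), the receptor cyclase gene CG31183 (0.088) and the phosphodiesterase genes Pde6 (-0.0055), Pde8 (0.22) and Pde11 (-0.049) were not called. Without centring Pde6 (-0.31, adjusted p = 0.00632) and Pde11 (-0.35, adjusted p = 0.0382) were called negative. Pde8 was called positive with scaled arrays (adjusted p = 0.0427), among named genes only (0.0404), without Rover replicate 4 (0.0441) and without sitter replicate 1 (0.0478).

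Members were spread over the genome. By chromosome arm of the Release 6 gene table, positive members made up 14.4% of named genes on 2L, 17.1% on 2R, 17% on 3L, 16.1% on 3R, 20% on 4 and 18.8% on X. Negative members were 18.4%, 15.4%, 18.4%, 17.9%, 22.9% and 14.8% in the same order. Chromosome 4 held 35 of the named genes and each other arm over 1000. Among the 25 measured genes on each side of Gycalpha99B on 3R, 10 were positive and 10 negative members, 40% of the 50, against 34.1% of all measured genes of the arm. With 50 and 100 genes on each side the share was 34% and 32.5%. The members within 25 genes included the odorant-binding protein gene Obp99d (-0.57) and the neuropeptide gene Capa.

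Duplicate spots give a second reading of each array. Of the 2299 members, 914 (39.8%) had the sign of their mean at every spot on every array. Among the 43 genes named by size or weakest array it was 35. CG14302, CG10560, Bace, CG11893 and Cyp312a1 had 16 of 16 spot values of one sign, Muc55B and CG13318 14 of 16, and CG10738 and Ir93a 15 of 16. Spots of 1 array share its hybridisation and are no further replicates.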

How the data were processed

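Mutant and control RNA were set side by side on 8 arrays, 4 per background. The labels name direct labelling of 80 µg RNA, a ScanArray 4000 scanner and QuantArray 3 with no background subtraction. Per the labels, the authors made the deposited ratios from normalised data, and these were taken as log2 ratios. Neither base nor normalisation is stated. Print lot A, hybridised for 15.75 hours, held replicate 1 of both backgrounds, and lot B, at 17.75 hours, held replicates 2 to 4. Of 27648 spots, 15116 had 1 gene symbol in the probe table, 102 had several and 12430 had none. A gene ID in the Release 6 table was found for 14894. Averaging gave 6793 genes, with 12532 other spots kept singly.

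Each array was centred on its median, and limma 3.58.1 (R 4.3.3) fitted a mean per background with empirical Bayes moderation and 6 residual degrees of freedom. Every adjusted p is limma's, by the Benjamini-Hochberg method across 19325 features; intervals are 95% and unadjusted. The number of arrays limits the precision. Named by rule were the 15 genes of largest mean and the 10 of largest weakest array per sign among called members, up to 4 members of each of 27 lists, and the cGMP list; other names were chosen after their values were seen. Members and lists were chosen with earlier results of these data known, and wrongly captured list entries (such as Cyp40, seminal proteins and annexins) were then removed by annotation. Alternatives were no centring, centring on named genes, scaling, robust moderation, array weights, replicate number or print lot as a block, the Cy5 gain, one mean, a fold threshold, single spots, named genes only, subsets of arrays and each array left out.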

Additional observations from a re-analysis of the deposited data

Results flagged for a closer look

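Among the 143 named genes, each background's 4 arrays were examined for 1 array far from the other 3, and 17 of 286 such groups had one, where chance flags about 1 in 20. On Rover replicate 1 these were CG10738 at -2.46 (others -1.08 to -0.99), Cyp312a1 at -2.70 (others -0.84 to -0.63), Pde1c at -1.37 (others -0.47 to -0.32), Gyc89Db at -0.23 (others -0.77 to -0.73) and Lip3 at -0.51 (others -0.95 to -0.87). Rover replicate 3 stood apart for eIF5B at 1.58 (others 0.19 to 0.31) and TpnC41C at -0.79 (others -0.39 to -0.33). Rover replicate 4 did so for NimC4 at -0.0087 (others -1.15 to -1.11) and Pkg21D at 0.83 (others -0.28 to -0.12). In sitter, replicate 2 was far from the rest for Phlpp at -4.20 (others -0.67 to -0.24), wda at -3.62 (others -0.93 to -0.64), mRpL13 at -1.54 (others -0.56 to -0.42) and TpnC41C at -0.59 (others -0.31 to -0.30). Replicate 1 was so for Top3alpha at 0.79 (others 1.57 to 1.64) and eater at -0.017 (others -0.95 to -0.79), and replicate 4 for gammaTry at 0.10 (others 0.48 to 0.51) and nec at 0.065 (others 0.43 to 0.50).

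The phosphodiesterase gene Pde6 was negative on all 4 Rover arrays and positive on all 4 sitter arrays, with a mean of Rover minus sitter of -0.22. The opposite signs as such were not tested; in limma the difference had an adjusted p of 0.658, and 60 of 6793 named genes had opposite signs in this way.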

How the results depend on the processing

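Centred, limma called 1966 genes positive and 1839 negative (5424 and 6187 features). Without centring it called 160 and 3048 genes (398 and 9038 features), and 90 genes were positive and 2126 negative on all 8 arrays. A fold threshold of 1.5 left 1 positive and 1 negative gene (3 and 1 features). With every spot of a gene required to be called or to share the sign, 1230 and 1409 genes were called, and 461 positive and 453 negative genes were of one sign. All other settings stayed within 1.5 times these counts; leaving out single arrays gave 1472 to 2041 positive and 1521 to 1895 negative genes. Replicate numbers were not taken as pairs, because deviations of same-numbered arrays correlated at 0.31, 0.12, 0.062 and 0.057, not all over 0.1. The first, for replicate 1, on lot A in both backgrounds, was the highest of 16 pairs of a Rover and a sitter array, and Rover replicates 2 and 3 correlated better with another number. With the replicate block 1946 and 1895 genes were called (5438 and 6426 features), and none of the 143 named genes changed its call. Replicate number, print lot and gain entered with their mean over the arrays removed. They left every mean over both backgrounds unchanged and could move only its spread and limma's p. Turned in sign without centring were Act79B at -0.024, CG31183 at -0.21, Gycalpha99B at -0.26, Pde8 at -0.079, Pkg21D at -0.27 and dl at -0.0018. Centring on named genes turned Gycalpha99B at -0.0038 and Pkg21D at -0.010, scaling turned Pde6 at 0.013 and Pkg21D at -0.013, and arrays at a gain of 64 alone turned Pde6 at 0.0038. Leaving out single arrays turned Gycalpha99B (-0.094 to 0.16, 0.039 with all arrays), Nos (-0.18 to 0.032, -0.072 with all arrays), Pde11 (-0.10 to 0.038, -0.049 with all arrays), Pde6 (-0.021 to 0.012, -0.0055 with all arrays) and Pkg21D (-0.10 to 0.088, 0.032 with all arrays). The cause was not tested. Without centring 13 more named genes lost their call, and by single spots 12 did. The genes that turned in sign, other than Act79B and dl, were not called as centred. Signal over background is not given, so dim spots could not be set aside.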

Other observations

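Unnamed spots gave larger common ratios than named genes on the negative side. Of 12532 single spots, 1939 were positive and 2551 negative on all 8 arrays, and 350 of the negative had a mean beyond 1 in size, against 27 among 6793 named genes. Named genes are means of at least 2 spots and these are single, so the 2 counts are not on equal terms. Neighbouring spots 23491 and 23492, for which no gene is given, had means of 1.52 and 1.42, and all their values on the 8 arrays lay between 0.73 and 2.24. They were chosen after their values were seen.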
